A study of Homo sapiens with 8 samples.

Results

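The genes described here are 10 targets of the transcriptional partners YAP and TEAD, namely CCN1, CCN2, CRIM1, F3, AXL, AMOTL1, AMOTL2, AJUBA, LATS2 and ANKRD1. They were chosen by name, and all 10 were found among the 28395 genes of the deposited table. They were read in 8 RNA-seq libraries of A-498 cells, which come from a human kidney carcinoma, to compare cells labelled as knockout (KO) for ANXA4, the gene of annexin A4, with wild type controls. Control line 1 carried non-targeting sgRNA-1 and control line 2 carried non-targeting sgRNA-2. The KO-labelled guide 1 line carried ANXA4 sgRNA-1 and the KO-labelled guide 2 line carried ANXA4 sgRNA-2, with 2 replicates for each of the 4 lines. Cells of all 8 samples were grown in RPMI medium with 10% FCS, penicillin and streptomycin. They were seeded at equal cell numbers and grown for 24 hours, below confluence. Each guide was represented by 1 line, so guide and line cannot be told apart, and the labels did not say whether a line was a clone or a pool. The labels also did not say whether replicates were separate cultures, so p-values measure only the spread between these samples.

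YAP and its paralogue TAZ (gene WWTR1) are coactivators that bind TEAD proteins at promoters and enhancers. Kinases of the Hippo pathway, ending in LATS1 and LATS2, phosphorylate YAP and TAZ and keep them out of the nucleus. Crowding, cell contacts and low cytoskeletal tension increase that restraint, so YAP target RNAs are widely read as a measure of cell density and spreading. Several targets feed back on the pathway, among them LATS2, the angiomotin-like genes and AJUBA. In kidney epithelium and kidney cancer cells the pathway is known for its links to growth, matrix production and injury.

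Total reads ranged from 15784890 to 22631588 per library, and mitochondrial genes held 4.67% to 13.8% of them, with the highest share in replicate 2 of the KO-labelled guide 2 line. Values are normalized read counts, that is, reads divided by 1 factor per library. ANXA4 stood at 2821, 3614, 3858 and 6773 in the control libraries and at 235.6 and 234.4 in the KO-labelled guide 1 line. It stood at 3433 and 4142 in the KO-labelled guide 2 line, within the control range, so KO denotes the label only. Of 11 markers of kidney epithelial cancer cells 10 passed the filter on low values, and their summed value was 96230 to 124750 in control and 90214 to 133749 in KO-labelled libraries. The exception was EPCAM, at 9.46 or less. CA9 passed but was scarce, at 2.07 to 24.8, so the summed value says little about it. Of 13 markers of leukocytes, endothelium, fibroblasts and erythroid cells, 3 passed (CD68, COL1A1 and PDGFRB), and CD3E, CDH5, LUM and HBA1 were at 0 in every library.

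TEAD proteins recognise the letters GGAATG, read CATTCC on the opposite strand. The promoter of CCN2 is shown because it is the member with the most matches and because its RNA fell in both KO-labelled lines. It is the 250 bases before the RefSeq start on the minus strand of chromosome 6 (GRCh38.p14, chr6:131951373-131951622), with the matches in capitals:
CCN2: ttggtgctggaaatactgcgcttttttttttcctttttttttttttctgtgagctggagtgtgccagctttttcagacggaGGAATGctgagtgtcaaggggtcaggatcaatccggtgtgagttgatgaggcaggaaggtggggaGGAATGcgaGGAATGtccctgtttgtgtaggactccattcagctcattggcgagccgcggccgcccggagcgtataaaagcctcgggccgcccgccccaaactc
The first bases of these 3 matches lie at -169, -104 and -95 from the start. Of 35116 RefSeq windows of this length, 11.9% held the motif at least once and 0.0826% held it at least 3 times.

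The remaining matches are shown as 30-base stretches, since they lie in members whose values follow below. Those of ANKRD1, AMOTL2 and AJUBA are on the minus strand, and that of AXL on the plus strand.
ANKRD1, chr10:90921290-90921319: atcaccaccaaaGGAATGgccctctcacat
ANKRD1, chr10:90921198-90921227: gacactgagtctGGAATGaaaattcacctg
AMOTL2, chr3:134374499-134374528: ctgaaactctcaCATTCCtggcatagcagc
AJUBA, chr14:22976884-22976913: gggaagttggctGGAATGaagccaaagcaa
AXL, chr19:41226531-41226560: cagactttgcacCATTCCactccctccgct
RefSeq windows were found for 8 members, 11 windows in all, and 5 of the 8 genes held the motif, where 14.3% of 27305 genes did. CCN1 and CRIM1 had no entry. No match was found in the windows of AMOTL1, LATS2 and F3, which says only that these letters are not there. The AXL match belongs to a second start inside the gene, with no GENCODE exon in its window. The AMOTL2 and AJUBA matches likewise belong to 1 of 2 annotated starts. By GENCODE these 2 matches and the ANKRD1 match at -128 lie in the untranslated part of exon 1 of a longer transcript (AMOTL2-201, AJUBA-203 and ANKRD1-201). The ANKRD1 match at -220 and the CCN2 matches lie in no annotated exon. F3 is shown for another reason, since its RNA rose between the replicate numbers, where the other called members fell. Its window on chromosome 1 holds the AP-1 motif TGANTCA, a palindrome bound by FOS and JUN proteins, at -223 and -210, in capitals here on the minus strand:
F3, chr1:94541958-94541987: gcggtTGAATCActggggTGAGTCAtccct
Of all windows 6.57% held that motif, and 1 window of ANKRD1 also held it, at -195. None of these matches overlaps a GGAATG match, and a match of letters is a description, not a measured binding site.

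**Figure D1:**
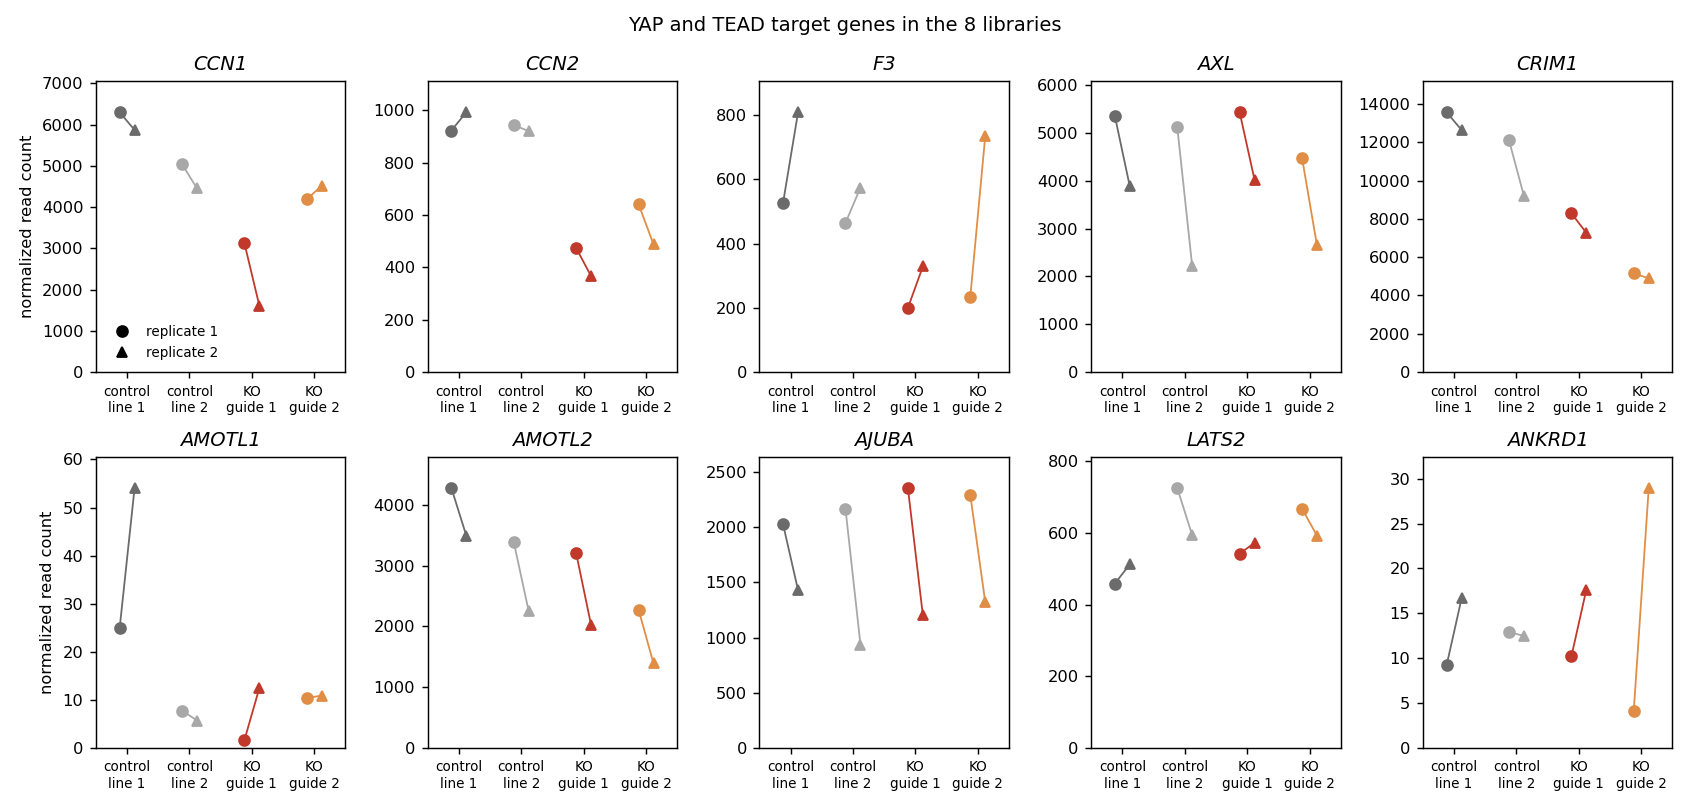
Normalized read counts (linear axis from 0) of the 10 genes in each of the 8 libraries, with circles for replicate 1, triangles for replicate 2 and a line joining the replicates of a line. CCN2 and CRIM1 lie lower in all 4 KO-labelled libraries than in all 4 control libraries. AJUBA, AXL, AMOTL2 and CRIM1 lie lower in replicate 2 of every line, and F3 lies higher.

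Of the secreted matrix proteins, CCN2 fell in both KO-labelled lines and CCN1 in the KO-labelled guide 1 line. Both bind integrins and shape adhesion and matrix production, and they are the most widely used readouts of YAP activity. CCN2 (chr6:131948176-131951372) was at 922 and 992 in control line 1, 943 and 920 in control line 2, 474 and 366 in the KO-labelled guide 1 line, and 641 and 488 in the KO-labelled guide 2 line. The 4 control libraries lay within a narrow range, and every KO-labelled library lay below it. Line means were 957 ± 49.5, 931 ± 16.3, 420 ± 76.0 and 564 ± 109 in that order (SD, n = 2 each), so CCN2 stood at 44.5% of the control mean in the KO-labelled guide 1 line and at 59.8% in the KO-labelled guide 2 line.

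CCN2 fell by 1.18 on the log2 scale in the KO-labelled guide 1 line (SE 0.16, limma adjusted p 0.00434) and by 0.75 in the KO-labelled guide 2 line (SE 0.16, adjusted p 0.0176). Both comparisons used the same 4 control libraries. The KO-labelled guide 1 line was the lower of the KO-labelled lines in all 4 library pairings, but their difference was not called (log2 0.42, SE 0.18, adjusted p 0.194) unless the replicate number entered as a block (adjusted p 0.0474). Control line 2 minus control line 1 was -0.04 (SE 0.18, adjusted p 0.964). Single libraries decided calls here. The call in the KO-labelled guide 1 line was lost without its replicate 2 (adjusted p 0.0693). That in the KO-labelled guide 2 line was lost without its replicate 2 (0.0954) or without replicate 1 or 2 of control line 1 (0.0520 and 0.0629). In bulk RNA, fewer cells with a transcript and less transcript per cell cannot be told apart. The antisense transcript CCN2-AS1 overlaps CCN2 and strand use in counting was not stated, so reads of this gene are uncertain to that extent.

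CCN1 (chr1:85580761-85583950) was at 6298 and 5868 in control line 1, 5042 and 4451 in control line 2, 3124 and 1607 in the KO-labelled guide 1 line, and 4190 and 4512 in the KO-labelled guide 2 line. Only the KO-labelled guide 1 line lay below every other library, at 43.7% of the control mean, while the KO-labelled guide 2 line overlapped control line 2. Line means were 6083 ± 304, 4747 ± 417, 2366 ± 1073 and 4351 ± 228 (SD, n = 2 each). CCN1 fell by 1.26 on the log2 scale in the KO-labelled guide 1 line (SE 0.23, limma adjusted p 0.0156). The value was -0.30 in the KO-labelled guide 2 line (SE 0.23, adjusted p 0.448).

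The direct difference between the KO-labelled lines was 0.96 (SE 0.26, adjusted p 0.0631) for CCN1, higher in the KO-labelled guide 2 line, and it was called with the replicate block (adjusted p 0.00418). Without replicate 2 of the KO-labelled guide 1 line, the library with the lowest CCN1, the difference of that line from control was -0.78 (adjusted p 0.0818). Leaving out replicate 1 or replicate 2 of control line 1 also ended the call (adjusted p 0.0541 and 0.0525).

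**Figure D2:**
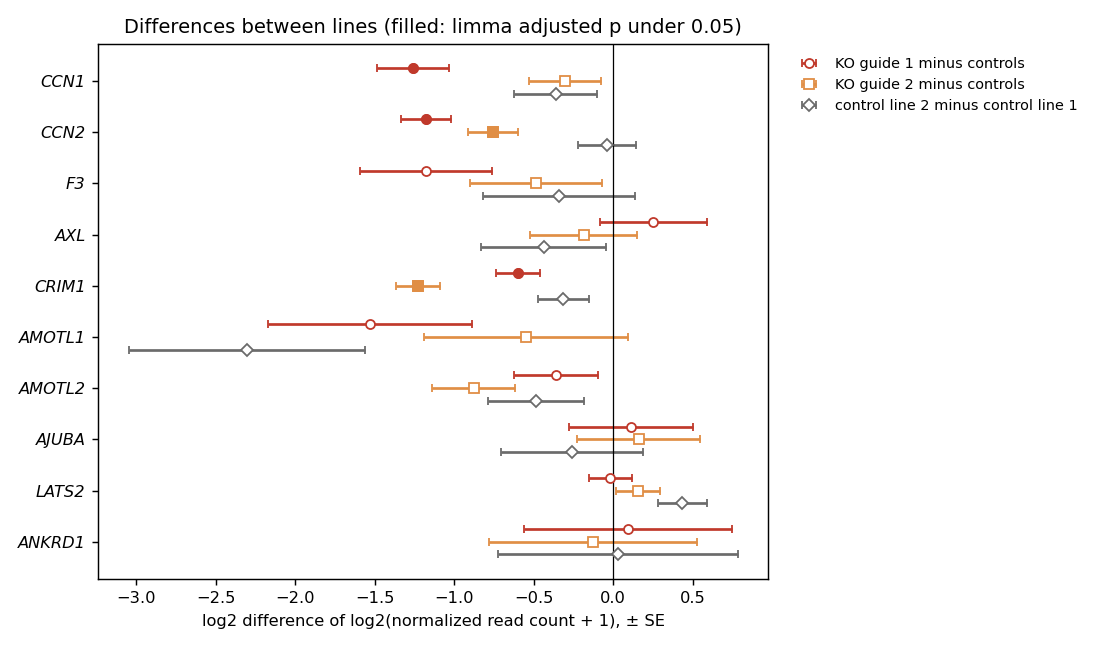
Differences in log2(normalized read count + 1) with their standard errors, for each KO-labelled line minus both control lines and for control line 2 minus control line 1. Filled symbols have a limma adjusted p under 0.05, and they are CCN1, CCN2 and CRIM1 in the KO-labelled guide 1 line (-1.26, -1.18 and -0.60) and CCN2 and CRIM1 in the KO-labelled guide 2 line (-0.75 and -1.23).

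Among the membrane proteins CRIM1 fell in both KO-labelled lines, more in the KO-labelled guide 2 line. CRIM1 is a cysteine-rich transmembrane protein that binds bone morphogenetic proteins. CRIM1 (chr2:36355778-36551135) was at 13572 and 12640 in control line 1, 12110 and 9189 in control line 2, 8293 and 7267 in the KO-labelled guide 1 line, and 5149 and 4897 in the KO-labelled guide 2 line. The 4 lines did not overlap at any step of that order. Line means were 13106 ± 658, 10650 ± 2065, 7780 ± 725 and 5023 ± 178 (SD, n = 2 each), which put the KO-labelled lines at 65.5% and 42.3% of the control mean.

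CRIM1 fell by 0.60 on the log2 scale in the KO-labelled guide 1 line (SE 0.14, limma adjusted p 0.0404) and by 1.23 in the KO-labelled guide 2 line (SE 0.14, adjusted p 0.00196). The second call was kept in all 19 alternatives, with adjusted p of at most 0.0132. The first was kept in 11 of 19, and was lost without either replicate of control line 1 (0.112 and 0.106), replicate 1 of control line 2 (0.0630) or either replicate of the KO-labelled guide 1 line (0.165 and 0.297). It was also lost with no filter on low values (0.0621), with libraries scaled to equal totals (0.0702) and relative to neighbouring genes, as given below. Guide 2 minus guide 1 was -0.63 (SE 0.16, adjusted p 0.0533), called with the replicate block (0.00261). The tested genes next to CRIM1 in chromosomal order, up to 25 on each side, had a median difference of -0.37 in the KO-labelled guide 2 line. Their median in the KO-labelled guide 1 line was -0.06. Relative to those neighbours CRIM1 was at -0.85 (adjusted p 0.0119) and -0.54 (0.0714).

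F3 encodes tissue factor, the membrane receptor of coagulation factor VII. F3 (chr1:94529173-94541759) was at 528 and 809 in control line 1, 465 and 574 in control line 2, 200 and 329 in the KO-labelled guide 1 line, and 234 and 735 in the KO-labelled guide 2 line. The KO-labelled guide 1 line lay below every control library, whereas replicate 2 of the KO-labelled guide 2 line lay above 3 of them. F3 differed by -1.18 in the KO-labelled guide 1 line (SE 0.41, limma adjusted p 0.125) and by -0.49 in the KO-labelled guide 2 line (SE 0.41, adjusted p 0.513). With the replicate block the first was called (adjusted p 0.00165). It was also called without replicate 1 or replicate 2 of the KO-labelled guide 2 line (0.0246 and 0.0251). The second changed to 0.34 (0.527) without replicate 1 of its own line and was called without replicate 2 (-1.31, 0.0450).

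AXL encodes the receptor tyrosine kinase that binds GAS6. AXL (chr19:41219223-41261766) was at 5354 and 3880 in control line 1, 5127 and 2210 in control line 2, 5434 and 4014 in the KO-labelled guide 1 line, and 4480 and 2647 in the KO-labelled guide 2 line. The lines overlapped throughout, and the lower value of each line was its replicate 2. The differences from control were 0.25 (SE 0.34, limma adjusted p 0.692) and -0.19 (SE 0.34, adjusted p 0.782).

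Of the 4 members that act on the Hippo pathway itself, AMOTL1, AMOTL2, AJUBA and LATS2, limma called 0 in either KO-labelled line, and AMOTL2 was the 1 called there under any alternative. AMOTL1 and AMOTL2 are scaffolds at cell junctions that bind YAP. AMOTL2 (chr3:134355345-134375417) was at 4284 and 3496 in control line 1, 3393 and 2249 in control line 2, 3211 and 2021 in the KO-labelled guide 1 line, and 2279 and 1391 in the KO-labelled guide 2 line. Replicate 1 of the KO-labelled guide 2 line lay just above replicate 2 of control line 2, so the arms overlapped. The difference was -0.36 in the KO-labelled guide 1 line (SE 0.26, limma adjusted p 0.439) and -0.88 in the KO-labelled guide 2 line (SE 0.26, adjusted p 0.0656).

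With the replicate block both AMOTL2 differences were called (adjusted p 0.0251 and 9.33e-05), as were control line 2 minus control line 1 (-0.49, 0.0198) and guide 2 minus guide 1 (-0.52, 0.00868). The second was also called without replicate 2 of control line 2 (-1.02, 0.0431) or without replicate 1 of its own line (-1.23, 0.0446), and by DESeq2 (0.00898). The neighbours of AMOTL2 moved with it. Their median was -0.78 in the KO-labelled guide 2 line, -0.20 in the KO-labelled guide 1 line and -0.35 between control line 2 and control line 1. Relative to its neighbours AMOTL2 was at -0.09 in the KO-labelled guide 2 line (adjusted p 0.876). With the block and the neighbours together, a setting added after the data were seen, it was again at -0.09 (adjusted p 0.591).

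**Figure D3:**
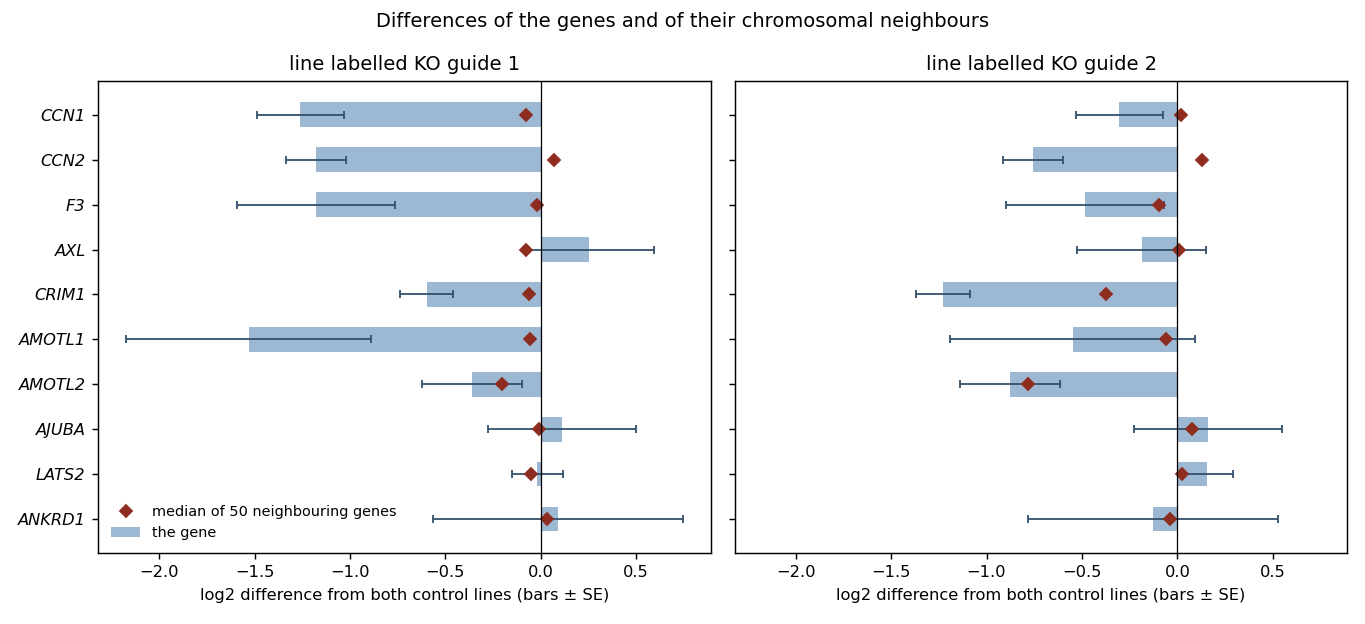
Bars show the log2 difference of each gene from both control lines with its standard error. The KO-labelled guide 1 line is on the left and the KO-labelled guide 2 line on the right. Diamonds show the median of the neighbouring tested genes in chromosomal order, up to 25 on each side and fewer near a chromosome end. AMOTL2 (-0.88) lies beside its neighbours (-0.78) in the right panel, while CCN1 and CCN2 (-1.26 and -1.18) lie far from theirs (-0.08 and 0.07) in the left.

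AMOTL1 (chr11:94706460-94876748) was scarce, with 2 to 52 reads in a library. Its values were 24.8 and 54.1 in control line 1, 7.74 and 5.66 in control line 2, 1.57 and 12.4 in the KO-labelled guide 1 line, and 10.3 and 10.9 in the KO-labelled guide 2 line. Control line 1 lay above the other 3 lines, which overlapped. Control line 2 minus control line 1 was -2.30 (SE 0.74, limma adjusted p 0.162), called with the replicate block (0.0271), and the KO-labelled lines differed from control by -1.53 (SE 0.64, adjusted p 0.188) and -0.55 (SE 0.64, adjusted p 0.645). The antisense gene PIWIL4-AS1 overlaps AMOTL1.

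AJUBA is a LIM protein that binds and restrains LATS kinases, and LATS2 is one of the kinases that phosphorylate YAP. AJUBA (chr14:22971177-22982551) was at 2026 and 1429 in control line 1, 2166 and 936 in control line 2, 2358 and 1202 in the KO-labelled guide 1 line, and 2296 and 1322 in the KO-labelled guide 2 line. All 4 lines overlapped, with differences from control of 0.11 and 0.16 (SE 0.39 each, limma adjusted p 0.889 and 0.837). LATS2 (chr13:20973036-21061586) was at 459 and 513 in control line 1, 726 and 594 in control line 2, 543 and 573 in the KO-labelled guide 1 line, and 668 and 593 in the KO-labelled guide 2 line. Its lowest and highest values were both in control lines, and its differences from control were -0.02 and 0.16 (SE 0.14 each, adjusted p 0.951 and 0.519).

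ANKRD1 encodes a nuclear and sarcomeric ankyrin repeat protein that is strongly induced by YAP in many cell types. ANKRD1 (chr10:90912096-90921087) had only 4 to 24 reads in a library, at 9.19 and 16.6 in control line 1, 12.9 and 12.5 in control line 2, 10.2 and 17.6 in the KO-labelled guide 1 line, and 4.14 and 28.97 in the KO-labelled guide 2 line. The lowest and the highest value came from the same line, and no difference was detectable at this depth.

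Over the members, 3 of 10 fell in the KO-labelled guide 1 line, where 7.01% of 14040 tested genes were called and 3.18% were called lower. In the KO-labelled guide 2 line, 2 of 10 fell, where 11.2% were called and 6.67% were called lower. No member was called higher in either, where 3.82% and 4.54% of genes were. The median difference of the members was -0.48 and -0.39, where the median of all tested genes was 0.00 and 0.01. Estimates were negative for 7 and 8 of the 10. Control line 2 minus control line 1 had a member median of -0.33, also with 8 of 10 negative. All tested genes had a median of -0.001 there. The replicate block raised the counts of called members in the KO-labelled guide 1 and guide 2 lines to 5 and 3. It called 24.4% and 27.4% of all genes there. None of the 10 was called between the control lines, where 2.13% of genes were called, and none between the KO-labelled lines, where 6.94% were. At an unadjusted p under 0.05 these counts were 2 and 3. With the block they were 2 and 4, with 12.5% and 24.5% of genes called. On recovered reads DESeq2 called 2 members between the KO-labelled lines (9.91% of genes) and 0 between the control lines (4.67%), and edgeR called 0 in both (6.55% and 2.04%).

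Taking each arm as 2 lines, 0 of 10 members were called between KO-labelled and control libraries by limma, where 0.235% of all genes were called. An unadjusted p under 0.05 was reached by 3 members. CCN2 averaged 944 ± 33.5 over the 4 control libraries and 492 ± 113 over the KO-labelled ones (SD), a log2 difference of -0.97 (SE 0.19, limma adjusted p 0.0876). CRIM1 averaged 11878 ± 1891 and 6402 ± 1649, a difference of -0.91 (SE 0.22, adjusted p 0.131). CCN1 averaged 5415 ± 827 and 3358 ± 1310, a difference of -0.78 (SE 0.32, adjusted p 0.386). CCN2 and CRIM1 were the 2 members with all 4 KO-labelled libraries below all 4 control libraries, a separation found in 5.51% of tested genes. The edgeR test called CCN2 (adjusted p 0.0268), with 1.32% of genes called, and DESeq2 called CCN2 (2.09e-05) and CRIM1 (0.00114), with 6.06%. Neither of these fits had a term for line, so the 4 libraries of an arm were taken as independent, which they are not. CCN2 ranged from an adjusted p of 2.09e-05 to 0.553 over the 21 alternatives, and the highest came from line means, which left 2 against 2.

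Members also differed by replicate number. Between replicate 2 and replicate 1, with the line as a fixed term, AJUBA, AXL and AMOTL2 fell and F3 rose, so 4 of 10 members were called where 17.6% of all tested genes were (8.97% higher and 8.62% lower). The labels did not say what the number stands for, such as a day or a passage, and no measure of growth state was given beyond seeding, so a growth state and any other difference between the replicate numbers cannot be told apart. All 4 calls were kept in each of the 14 alternatives, which included leaving out each line in turn.

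AJUBA averaged 2211 ± 147 in replicate 1 and 1222 ± 212 in replicate 2 (SD, n = 4 lines each), with no overlap between them. Its replicate 2 stood at 70.5% of replicate 1 in control line 1, 43.2% in control line 2, 51.0% in the KO-labelled guide 1 line and 57.6% in the KO-labelled guide 2 line, a log2 difference of -0.87 (SE 0.10, limma adjusted p 0.000625). AXL averaged 5099 ± 432 and 3188 ± 896, again without overlap. The corresponding shares for AXL were 72.5%, 43.1%, 73.9% and 59.1%, a difference of -0.72 (SE 0.11, adjusted p 0.00259). In both genes control line 2 showed the greatest drop.

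AMOTL2 averaged 3292 ± 822 in replicate 1 and 2289 ± 882 in replicate 2, with shares of 81.6%, 66.3%, 62.9% and 61.0% in the same order of lines. It fell in 4 of 4 lines, by 0.57 on the log2 scale (SE 0.08, limma adjusted p 0.00187), and its neighbours had a median of -0.04. F3 averaged 356 ± 164 and 612 ± 213. Its replicate 2 stood at 153%, 124%, 165% and 315% of replicate 1, a difference of 0.82 (SE 0.17, adjusted p 0.00801). The KO-labelled guide 2 line showed the greatest rise and control line 2 the smallest. Mitochondrial shares of replicates 1 and 2 were 4.67% and 6.35%, 6.39% and 9.05%, 6.43% and 6.23%, and 6.40% and 13.8%, in the same order of lines. A link between these shares and F3 was not tested. Without the KO-labelled guide 2 line the F3 difference was 0.55 (limma adjusted p 0.0187), so the call did not rest on that line.

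**Figure D4:**
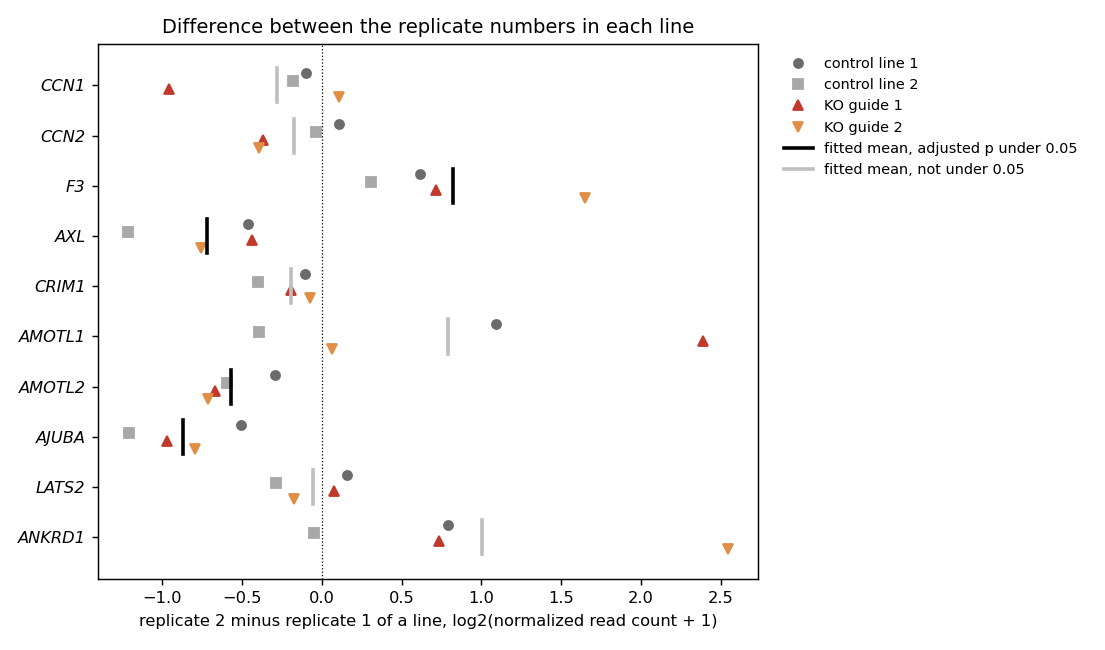
Replicate 2 minus replicate 1 of log2(normalized read count + 1) in each of the 4 lines (symbols), with the fitted mean over lines as a bar, black where the limma adjusted p was under 0.05. All 4 symbols lie below 0 for AJUBA, AXL and AMOTL2 (fitted -0.87, -0.72 and -0.57) and above 0 for F3 (0.82).

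Neither of the 2 classical readouts was called between the replicate numbers, though both estimates were negative. Whether they differed from the called members was not tested. CCN1 had a replicate difference of -0.28 (SE 0.14, limma adjusted p 0.163) and CCN2 of -0.17 (SE 0.10, adjusted p 0.248). By line CCN2 stood at 108%, 97.6%, 77.3% and 76.1%, and CCN1 at 93.2%, 88.3%, 51.4% and 108%. CRIM1 was lower in replicate 2 of all 4 lines, by 0.19 on average (SE 0.08, adjusted p 0.126). It was called only where libraries were scaled to equal totals (adjusted p 0.0442), which moved the median of all genes to -0.07 and the calls from 1260 higher and 1210 lower to 796 higher and 1866 lower. LATS2 was at -0.06 (adjusted p 0.722), and the scarce genes ANKRD1 and AMOTL1 were at 1.01 (SE 0.39, adjusted p 0.0946) and 0.79 (SE 0.43, adjusted p 0.217). In all, 4 members were lower in replicate 2 of every line and 1 was higher, where 19.3% and 20.2% of tested genes did so.

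Whether the replicate difference itself differed between the arms was tested by an interaction term. None of the 10 members was called by limma, with 0.00712% of all genes called, and 2 members had an unadjusted p under 0.05. This fit left 2 residual degrees of freedom per gene, so the lack of calls does not show that the arms were alike. F3 rose more in the KO-labelled lines by 0.72 (SE 0.29, unadjusted p 0.0315, adjusted p 1), and CCN2 fell more in them by 0.42 (SE 0.18, unadjusted p 0.0392, adjusted p 1).

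Transcripts of the factors that drive these targets were examined beside them. Of 10 genes for YAP, TAZ, TEAD and vestigial-like proteins, 7 passed the filter and 0 were called by limma in any of the 5 comparisons of lines. An unadjusted p under 0.05 was reached by TEAD4 between the control lines (0.0125), WWTR1 in the KO-labelled guide 2 line (0.00652), and WWTR1 and YAP1 between the KO-labelled lines (0.0413 and 0.0225). The edgeR test called 0 factors in these comparisons and DESeq2 called 1, WWTR1 in the KO-labelled guide 2 line (adjusted p 0.0202). With the replicate block limma called those same 4 differences (adjusted p 0.0304, 0.00575, 0.0446 and 0.0298). Of all genes the block called 12.5% between the control lines, 27.4% in the KO-labelled guide 2 line and 24.5% between the KO-labelled lines. VGLL1, VGLL2 and VGLL3 had 0 or 1 read. YAP1 ranged from 1537 to 1724 in control and from 1148 to 1871 in KO-labelled libraries, with a difference between the arms of -0.05 (limma adjusted p 0.954). WWTR1 ranged from 4623 to 5684 and from 3300 to 5188, with differences of -0.11 (adjusted p 0.677) and -0.51 (adjusted p 0.0542) in the KO-labelled guide 1 and guide 2 lines. WWTR1 lies on chromosome 3, as does AMOTL2, whose neighbours had a median of -0.78 in the KO-labelled guide 2 line. CCDC80 and ITGB5, described below, lie on that chromosome too. Differences relative to neighbouring genes are not given here for WWTR1, CCDC80 or ITGB5. TEAD1, TEAD2, TEAD3 and TEAD4 differed between the arms by 0.15, -0.23, 0.01 and 0.22, with adjusted p of at least 0.554. TEAD3 fell by 0.49 between the replicate numbers (SE 0.12, limma adjusted p 0.0183), the 1 factor called there, where 17.6% of all tested genes were. RNA levels do not show the phosphorylation or location of YAP, which were not analysed here.

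Upstream, of 18 Hippo kinases and adaptors, all of them tested, 1 was called in each KO-labelled line. Limma called 7.01% of all tested genes in the KO-labelled guide 1 line and 11.2% in the KO-labelled guide 2 line. FRMD6, a scaffold upstream of the kinases, fell by 0.86 in the KO-labelled guide 1 line (limma adjusted p 0.0354), where its higher value of 456 overlapped control line 2 (558 and 421), and the kinase MAP4K4 fell by 0.68 in the KO-labelled guide 2 line (adjusted p 0.0173). The counts of called Hippo genes were 6 and 4 with the replicate block, where it called 24.4% and 27.4% of all genes. Between the replicate numbers the adaptors WWC2 and WWC1 fell (-0.44 and -0.41), 2 of the 18, where 17.6% of all genes were called. Of 18 junction and polarity genes 15 were tested, and 3 rose in the KO-labelled guide 1 line, namely PTPN14, CRB3 and PATJ (0.64, 2.47 and 0.87). CRB3 was scarce, at 1.84 to 5.66 in controls and 26.6 and 19.7 in that line. PATJ also rose in the KO-labelled guide 2 line (0.83). The block raised the counts in those lines to 6 and 3 of the 15, beside the same 24.4% and 27.4% of all genes. Between the replicate numbers PALS1, PATJ and FAT4 fell (-0.48, -0.39 and -0.49), 3 of the 15, beside the same 17.6% of all genes.

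A further 14 YAP and TEAD targets, all tested, moved in both directions. In the KO-labelled guide 1 line, DOCK5, a guanine nucleotide exchange factor, and PTPN14, a phosphatase that binds YAP, rose (0.77 and 0.64) and the secreted protein CCDC80 fell (-2.54). In the KO-labelled guide 2 line, DOCK5 and the stress gene GADD45A rose (1.00 and 0.52) and CCDC80 fell (-1.72). CCDC80 ranged from 3300 to 8903 in controls and from 783 to 2115 in the KO-labelled arm, without overlap. The other 11 genes in each comparison were not called, and the median of the 14 was -0.16 and -0.13. Limma called 7.01% and 11.2% of all tested genes in these lines. Between the control lines the median of the 14 was -0.44, and limma called 1, FJX1, lower in control line 2 (-0.95, adjusted p 0.0219). There 9 of the 14 had an unadjusted p under 0.05, and 2.13% of all genes were called. Between the arms 0 of the 14 were called by limma and 2 had an unadjusted p under 0.05. In fits without a term for line, edgeR called 1 and DESeq2 called 2. The shares of all genes called there were 0.235% by limma, 1.32% by edgeR and 6.06% by DESeq2. With the replicate block 8 were called in the KO-labelled guide 1 line (4 higher, 4 lower) and 6 in the KO-labelled guide 2 line (2 higher, 4 lower). Between the control lines the block called 9 of the 14 (2 higher, 7 lower). It called 24.4%, 27.4% and 12.5% of all genes in these 3 comparisons, in that order. Between the replicate numbers 7 were called, with IGFBP3, NT5E and CCDC80 higher (1.31, 0.72 and 0.46) and NUAK2, TGFB2, MYOF and ARHGEF17 lower (-0.61, -0.45, -0.35 and -0.32). ARHGEF17 was named because it completes that count, after its value was seen. Among all tested genes 17.6% were called between the replicate numbers. Of the other CCN genes only CCN3 passed the filter, and it rose between the replicate numbers (0.74, limma adjusted p 0.000936). In the fit with the block it was also called higher in both KO-labelled lines, and lower in control line 2 than in control line 1.

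SRF and its MRTF coactivators respond to the actin cytoskeleton and share targets with YAP. Of 21 genes of that group, 5 fell between the replicate numbers and 0 rose, namely MRTFA, SRF, FLNA, MRTFB and FHL2 (-0.63, -0.51, -0.53, -0.34 and -0.24). Among all tested genes 8.62% were called lower there and 8.97% higher. Limma called 7.01% and 11.2% of all genes in the KO-labelled guide 1 and guide 2 lines. In the KO-labelled lines limma called 3 lower and 1 higher in the KO-labelled guide 1 line and 4 higher, 0 lower, in the KO-labelled guide 2 line. The gene called higher in the former was MYL9, a myosin light chain, which also differed between the control lines (9.32, limma adjusted p 3.08e-06). MYL9 was at 0.919 and 0 in control line 1, 862 and 903 in control line 2, 146 and 241 in the KO-labelled guide 1 line and 1251 and 1434 in the KO-labelled guide 2 line, so the KO-labelled guide 1 line lay between the control lines. CNN1, calponin, fell in the former and rose in the latter, at 20.8 to 28.4 in controls, 2.35 and 1.04 in the KO-labelled guide 1 line and 87.9 and 71.2 in the KO-labelled guide 2 line. The block gave 4 lower and 2 higher in the former and 8 higher and 1 lower in the latter. It called 24.4% and 27.4% of all genes in these lines. Immediate early genes respond within a short time to growth factors. Of 17 tested, 5 were called between the replicate numbers, where 17.6% of all tested genes were. EGR1 fell from 155 to 491 in replicate 1 to 40.6 to 108 in replicate 2 (-2.04, adjusted p 0.000664), DUSP1, JUNB and MYC fell (-0.57, -0.31 and -0.30), and the AP-1 subunit FOSL1 rose (0.45). Their part in the replicate differences of the members was not tested.

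Cell cycle genes were read as a measure of proliferation. Of 33 cell cycle genes, all tested, 29 had a lower estimate in the KO-labelled arm (median -0.38, all genes 0.00), and 0 were called between the arms by limma. There 8 had an unadjusted p under 0.05, and edgeR called 1 and DESeq2 called 6, all lower, in fits without a term for line. The shares of all genes called there were 0.235% by limma, 1.32% by edgeR and 6.06% by DESeq2. In the KO-labelled guide 1 and guide 2 lines 2 and 10 fell, and 13 and 18 with the replicate block. Limma called 3.18% and 6.67% of all genes lower there, and the block called 24.4% and 27.4% in either direction. The summed value of the 33 genes was 99457 to 113544 in control and 77870 to 93361 in KO-labelled libraries. AURKA, a mitotic kinase, fell in both (-0.76 and -0.62), and BUB1 fell in the KO-labelled guide 2 line (-0.93). Between the replicate numbers 6 rose, among them AURKB, RRM2 and CDK1 (0.69, 0.62 and 0.68), and 2 fell, MCM2 and KIF20A (-0.31 and -0.35). Among all tested genes 8.97% were called higher there and 8.62% lower. Among markers of other cell types, COL1A1, a collagen gene, was at 548 to 1408 in controls and 177 to 511 in the KO-labelled arm. It fell in both lines (-2.28 and -1.03). PDGFRB, another fibroblast marker, was scarce, at 12.9 and 19.8 in control line 1, 4.30 and 4.53 in control line 2, 2.35 and 1.04 in the KO-labelled guide 1 line and 6.21 and 3.62 in the KO-labelled guide 2 line. Its differences were -1.88 (limma adjusted p 0.0550, and 0.0219 with the block) and -0.73 (adjusted p 0.388). The remaining fibroblast markers COL1A2 and LUM were at 1.04 or less. The summed value of the 13 markers, most of it from CD68, was 2340 to 5311 in control and 3314 to 4925 in KO-labelled libraries. The part of proliferation and of these markers in the differences of the members was not tested.

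Ligands and partners of the members were examined because several act outside the cell. Of 20 such genes 16 were tested. Limma called 1 and 5 of them in the KO-labelled guide 1 and guide 2 lines, where 7.01% and 11.2% of all genes were. GAS6, the ligand of AXL, fell by 0.86 in the KO-labelled guide 1 line (limma adjusted p 0.00849). The integrin subunits ITGB5, ITGB3 and ITGAV, which receive CCN1 and CCN2, fell in the KO-labelled guide 2 line (-1.70, -1.55 and -0.60), as did LRP1 (-1.11), a receptor that binds CCN2. F2RL1, the protease-activated receptor downstream of tissue factor, was called higher there (0.98) and also in control line 2 against control line 1 (1.40, adjusted p 0.0346). Its values in the KO-labelled guide 2 line, 167 and 157, lay within the range of control line 2, 105 and 168. In each KO-labelled line 10 of the 16 were called once the replicate block was entered. The block called 7 of the 16 between the control lines. Its shares of all genes were 24.4% and 27.4% in the KO-labelled guide 1 and guide 2 lines and 12.5% between the control lines. Without the block TGFB1 was also called between the control lines (1.06, limma adjusted p 0.0147). Between the replicate numbers TFPI2 and TFPI, both Kunitz-type inhibitors and the latter that of tissue factor, rose with F3 (1.22 and 0.44), as did PROS1, protein S (0.49). These were the 3 called of the 16, where 17.6% of all tested genes were.

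The genes closest to CCN1 and CCN2 over the 8 libraries were sought among 11204 tested genes averaging 50 or more, by the root mean square difference of centred log2 values. For CCN2 they were GLIPR2 (0.182), TNC (0.203) and THBS1 (0.205), where the median gene was at 0.575 and CCN2 itself varied by 0.525 around its mean. TNC, the matrix protein tenascin C, ranged from 6450 to 7222 in controls and from 2723 to 3452 in the KO-labelled arm. This lack of overlap, found in 5.51% of tested genes, follows from the choice of genes like CCN2 and is no separate result. For CCN1 they were RFLNB (0.184), FZD2 (0.220) and SH3BGR (0.242), where the median gene was at 0.635. RFLNB, which encodes a filamin-binding protein, was lowest in the KO-labelled guide 1 line, at 1010 and 787, and at 1497 and 1784 in the KO-labelled guide 2 line. RFLNB was likewise chosen for its likeness to CCN1, so its order of lines is no separate result. All 8 points per gene share their libraries, so these measures describe likeness in this set of samples.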

How the data were processed

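Polyadenylated RNA of 8 samples was sequenced. Per the submitters' processing notes, fastp 0.23.2, HISAT2 2.2.1, featureCounts 2.0.1, DESeq2 2.11.40.8 and the build hg38 (GRCh38) were used. The role of each tool and the use of strand were not given in the sources used here. The deposited signal was a read count divided by 1 factor per library, with no replicates pooled. Multiplying back gave whole reads for 100% of 140322 values above 0 (within 0.01 read). Of 28395 genes 7487 were at 0 everywhere. Symbols came from RefSeq GRCh38.p14 for 27745 identifiers. The 650 others held 0.0332% of reads.

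The main test was limma 3.58.1 (R 4.3.3). It was run on log2(value + 1), which understates fold changes of scarce genes. A gene was tested if 2 or more libraries reached a value of 10, which 14040 genes did, all 10 members included. Benjamini-Hochberg adjustment covered all tested genes, and a call is an adjusted p under 0.05. The arms were compared with duplicateCorrelation by line (0.33), and single lines with a mean per line. Where 1 library of a line was left out, the lone sample was assumed to vary like the others. Recovered reads were tested with edgeR 4.0.16 and DESeq2 1.42.0. Between the arms these count tests had no term for line and took the libraries of an arm as independent. The fitting code was tested on simulated data.

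Replicate numbers came from the sample titles. Replicate 2 minus replicate 1 correlated across genes at r = 0.285 to 0.501 in the 6 pairs of lines, above the limit of 0.1, so the numbers were taken as pairing the samples. Replicates were not 1 library deposited again, since their reads differed by a chi-square per degree of freedom of 18.8 to 72.3.

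The members and gene lists were chosen with earlier results of these data known. All members and YAP1, WWTR1 and TEAD1 to TEAD4 were named, with up to 6 called genes per list and comparison and 3 genes of most similar profile for CCN1 and CCN2. Promoters were the 250 bases before RefSeq starts. Motifs were searched on both strands.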

Additional observations from a re-analysis of the deposited data

How the results depend on the processing

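With 2 replicates per line, leaving out 1 library could end a call, and low read counts limit ANKRD1 and AMOTL1. Of the 9 differences of members that limma called at the settings of the main test, 0 changed sign under any alternative run. In the comparison of the arms, 1 member was called with no filter, 1 by edgeR and 2 by DESeq2, both without a term for line, and 3 with a separate mean per line. Genes called there numbered 71, 186, 850 and 1474 in that order, 56 with gene-order windows (each gene minus the median of its neighbours) and 0 by limma on line means, where 1086 had an unadjusted p under 0.05.

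With the replicate block, members called numbered 5 in the KO-labelled guide 1 line, 2 for control line 2 against control line 1 and 4 for guide 2 against guide 1. Genes called with the block were 3432 in guide 1, 3851 in guide 2, 1752 in control line 2 against 1 and 3442 in guide 2 against 1. The block changed no call of a member other than those given with it above. Block and windows together, chosen after seeing the data, gave 2921, 2712, 879 and 2577 genes, with 1 member called between control lines and 3 in guide 2 against 1 (CCN1, F3 at an adjusted p of 0.0351 and AXL at 0.0363). Windows alone gave 814 genes in guide 2, 143 between control lines and 389 in guide 2 against 1. Between control lines no filter gave 183 genes and DESeq2 655. DESeq2 called 2 members in guide 2 against 1.

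Leaving out 1 library gave 7 to 39 genes between the arms (fewest without replicate 1 of guide 2), 148 to 1312 in guide 1 (fewest without either of its own replicates), 813 to 1363 in guide 2 (fewest without replicate 1 of control line 1), 43 to 410 between control lines and 87 to 1003 in guide 2 against 1. Members called were 0 between the arms and between control lines in every such fit, 0 to 4 in guide 1, 1 to 3 in guide 2 and 0 to 1 in guide 2 against 1. Leaving out 1 line gave 709 to 2274 genes between the replicate numbers (fewest without control line 2) and 4 members in each fit.

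The sign of differences near 0 depended on single libraries. Leave-one-out ranges (log2) that crossed 0 between the arms were -0.50 to 0.54 for ANKRD1, -0.13 to 0.36 for AJUBA, -0.0080 to 0.17 for LATS2 and -0.25 to 0.24 for AXL. In guide 1 they were -0.28 to 0.46, -0.37 to 0.60, -0.090 to 0.055 and -0.050 to 0.56 for the same genes. In guide 2 they were -1.40 to 1.15 for ANKRD1, -0.24 to 0.56 for AJUBA, -0.57 to 0.19 for AXL and -1.31 to 0.34 for F3. Between control lines they were -0.37 to 0.42 for ANKRD1, -0.86 to 0.35 for AJUBA, -1.04 to 0.17 for AXL and -0.091 to 0.014 for CCN2. In guide 2 against 1 they were -1.49 to 1.05 for ANKRD1, -0.44 to 0.53 for AJUBA, -0.21 to 2.18 for AMOTL1 and -0.13 to 1.52 for F3, and between the replicate numbers -0.13 to 0.022 for LATS2.

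ANKRD1 also changed sign with other settings. Between the arms it was at 0.056 with a pseudocount of 10, 0.23 by edgeR and 0.24 by DESeq2, in guide 2 at 0.052, 0.33 and 0.36, in guide 2 against 1 at 0.23 and 0.25 by edgeR and DESeq2, and between control lines at -0.010 and -0.021 by those tools and -0.00048 with windows, with or without the block. With windows, again with or without the block, LATS2 changed to 0.036 in guide 1, and in guide 2 against 1 AMOTL2 changed to 0.064 and AJUBA to -0.036. The causes were not tested.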
